A study of Mus musculus with 39 samples.

Results

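The nuclear-encoded subunits of respiratory chain complexes I, III and IV were followed in mouse brain after soman, an organophosphate nerve agent that blocks acetylcholinesterase. Subunits were chosen by gene symbol: 52 genes of the 47561 in the expression table, of which 34 belong to complex I (symbols beginning Nduf), 8 to complex III (Uqcr) and 10 to complex IV (Cox). Each symbol was found once, and all 52 were among the 14701 genes with at least 1 FPKM (fragments per kilobase of transcript, scaled to the mapped fragments of the library) in at least 3 libraries, the filter used for testing. Soman was injected under the skin. The lowest dose was 1/10 of the median lethal dose (LD50), the middle dose 1/5 and the highest 1/2, and brains were taken on days 1, 3, 7 and 14 at each dose, which gives 12 soman groups. The comparison group received saline, with no day of its own in the labels. Each of the 13 groups holds 3 libraries of poly(A)-selected brain RNA, 39 in all. The study's text calls them biological replicates, and the labels do not say that each is 1 animal, so p-values measure the spread between these libraries. Strain, sex and age of the mice and the region of the brain are not given in the sources used here.

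Complex I oxidises NADH and passes the electrons to ubiquinone, complex III passes them on to cytochrome c, and complex IV hands them to oxygen. All of them pump protons across the inner mitochondrial membrane, and the gradient drives ATP synthase, or complex V. A few catalytic subunits are encoded by mitochondrial DNA, and all others, among them the flavin and iron-sulfur subunits of complex I, the Rieske protein of complex III and the small accessory subunits, are made from nuclear genes. Neurons depend on this chain for the ATP that ion pumping uses. Promoters of nuclear subunit genes often carry binding motifs of NRF1, GABPA (also called NRF2) and YY1, transcription factors known for their role in making mitochondria.

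Promoter sequences were available for 44 of the 52 genes in RefSeq's GRCm38.p6 annotation, as windows of 250 bases before and 50 bases after the annotated start. The letters GCGCANGC (NRF1), read on both strands, occurred in 12 of the 44 windows (27.3%), against 10.1% of 27025 mouse gene windows. CCGGAAG (GABPA) occurred in 9 (20.5%, against 9.12%) and AAGATGGC (YY1) in 7 (15.9%, against 2.88%). A window can hold several motifs, and at least 1 stood in 25 subunit windows (56.8%, against 19.5%). The median GC content of the windows was 57.8% for the subunits and 52.7% for all genes. The sequences below show the contrast among genes whose values recur in the results: Ndufa6 and Ndufa11 with 3 NRF1 matches each, Uqcr11 with an NRF1 and a GABPA match, and Ndufv1 with none of the 3 motifs. Capitals mark the matches, overlapping ones as 1 stretch, and each sequence runs 5′ to 3′ along its gene. The windows are chr15:82354242-82354541 on the minus strand, chr17:56717512-56717811 on the plus strand, chr10:80406772-80407071 on the minus strand and chr19:4012706-4013005 on the minus strand.
Ndufa6: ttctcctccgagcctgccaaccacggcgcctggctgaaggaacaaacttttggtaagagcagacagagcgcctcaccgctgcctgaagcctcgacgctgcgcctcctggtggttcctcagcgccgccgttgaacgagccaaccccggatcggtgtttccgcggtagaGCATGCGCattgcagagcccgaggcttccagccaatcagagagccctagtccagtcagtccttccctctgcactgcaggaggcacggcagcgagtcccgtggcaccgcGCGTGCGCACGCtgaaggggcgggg
Ndufa11: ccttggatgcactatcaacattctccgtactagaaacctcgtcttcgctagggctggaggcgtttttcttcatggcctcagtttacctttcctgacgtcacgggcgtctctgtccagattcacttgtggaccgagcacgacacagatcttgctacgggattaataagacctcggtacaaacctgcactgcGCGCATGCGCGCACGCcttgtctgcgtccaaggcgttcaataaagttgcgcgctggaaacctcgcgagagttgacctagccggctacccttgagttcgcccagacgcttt
Uqcr11: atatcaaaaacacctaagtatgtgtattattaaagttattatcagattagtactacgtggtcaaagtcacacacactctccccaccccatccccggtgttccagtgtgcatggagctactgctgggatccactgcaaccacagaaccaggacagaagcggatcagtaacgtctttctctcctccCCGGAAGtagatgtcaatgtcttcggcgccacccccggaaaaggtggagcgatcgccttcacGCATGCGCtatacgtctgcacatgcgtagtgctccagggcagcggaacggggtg
Ndufv1: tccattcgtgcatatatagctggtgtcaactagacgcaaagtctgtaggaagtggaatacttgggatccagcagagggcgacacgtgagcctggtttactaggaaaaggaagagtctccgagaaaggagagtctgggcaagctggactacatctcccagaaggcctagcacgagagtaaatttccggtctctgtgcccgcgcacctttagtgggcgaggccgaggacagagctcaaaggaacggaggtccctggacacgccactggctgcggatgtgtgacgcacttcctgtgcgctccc
In Ndufa11 the overlapping NRF1 matches make up 1 stretch, while in Ndufa6 they lie at 2 places, near the middle of the window and near its end. A match of letters describes the window and says nothing about binding.

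Read depth cannot be recovered from the table, so the precision that depth gives is unknown. The FPKM of all genes summed to between 296322 and 342231 per library. The 52 subunits made up 1.20% to 2.31% of that sum (median 1.96%), and genes of the mitochondrial genome 7.17% to 27.6% (median 10.4%). Libraries 2 and 3 of the 1/10 LD50 day 7 group had the highest mitochondrial shares (23.1% and 27.6%, against 12.1% in library 1). In 7 libraries, values lay between those of the other 2 of their group (0.3 to 0.7 of the way) at 46.3% to 77.6% of the genes that differ at least 2-fold between those 2, more often than in any library of another group; the remaining libraries had a median of 17.5% and reached 58.7%. The 7 were saline library 3, library 3 of each dose at day 1, library 2 of 1/10 LD50 at day 7 and library 3 of 1/10 and of 1/5 LD50 at day 14. Results are given with and without these libraries where the count changes. Markers of neurons, astrocytes, oligodendrocytes, microglia, endothelium, meninges, choroid plexus and blood were all detected, and the muscle isoforms Cox6a2, Cox7a1 and Cox8b together reached 3.82 to 5.17 FPKM in saline. In bulk tissue fewer cells of a type and less RNA per cell cannot be told apart.

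Levels in saline brains are given in FPKM, a measure per transcript length. Complex IV genes had the highest levels, with a median of 206 FPKM over their 10 group means, against 93.3 FPKM for complex III and 65.9 FPKM for complex I. The highest was Cox4i1, the largest nuclear subunit of complex IV, at 509 ± 8.97 FPKM (SD, n = 3), and the lowest of that complex was Cox7a2, at 109 ± 15.5 FPKM. In complex III the range ran between Uqcrh, the hinge protein that helps cytochrome c dock, at 166 ± 4.11 FPKM, and Uqcrq, a small accessory subunit, at 32.3 ± 1.67 FPKM. In complex I it ran between Ndufb8, of the membrane arm, at 145 ± 10.5 FPKM, and Ndufa11, also of the membrane arm, at 19.8 ± 0.52 FPKM. The median SD of the subunits within the saline group was 0.0692 on the log2(FPKM + 1) scale. In that group library 3 lay between the other 2 at 66.7% of the genes that separate them.

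The time course of the 52 subunits had the same outline in the 3 complexes. They lay close to saline on day 1, above them on day 3, furthest above them at 1/5 LD50 on day 7, and close to them again on day 14. The 1/10 LD50 group of day 7 broke this outline because its libraries were far apart. Changes below are differences of mean log2(FPKM + 1) with their standard error, from 1 limma model of all 13 groups, and a gene passed at a Benjamini-Hochberg adjusted p under 0.05 over all 14701 genes. All comparisons with saline use the same 3 saline libraries, so they are not independent of each other.

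**Figure D1:**
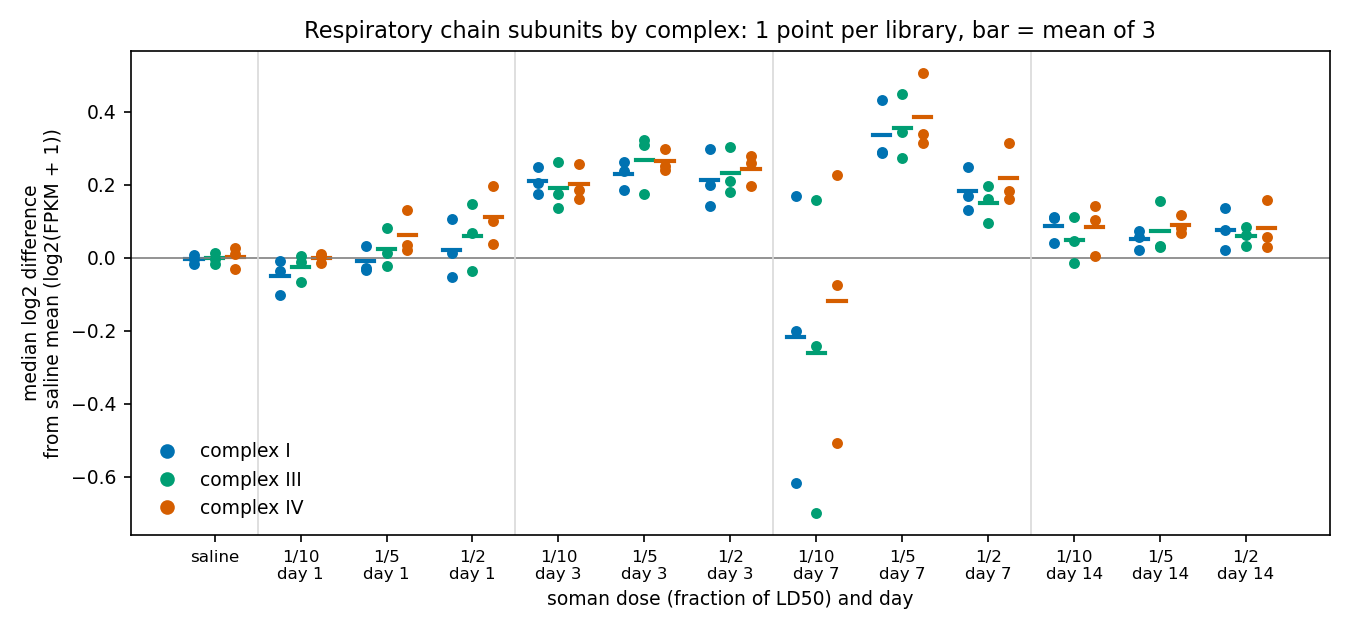
Median difference of the subunits of each complex from the saline mean, on the log2(FPKM + 1) scale (y axis), in each of 39 libraries, by soman dose and day (x axis). Points are libraries and bars the mean of 3: the day 3 libraries lie between 0.14 and 0.32, the 1/5 LD50 day 7 libraries between 0.27 and 0.51, and the 1/10 LD50 day 7 libraries are spread between -0.70 and 0.23.

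On day 1 no subunit passed in either direction at any dose, by limma. Of all tested genes, 0.068% rose and 0.279% fell at the lowest dose. At the middle dose 0% rose and 0.0136% fell, and at the highest 0.0272% rose and 0.0884% fell. At an unadjusted p under 0.05, 1, 2 and 1 subunits were found at the 3 doses. Of all 14701 genes 1579, 843 and 1075 were found, a larger share than of the subunits at each dose. The median change of the 52 was -0.03, 0.00 and 0.04 at 1/10, 1/5 and 1/2 LD50, and that of all genes -0.02, -0.03 and -0.01. The fitted changes of single subunits ran between -0.25 and 0.44 over the 3 doses. The upper end belonged to Ndufv3, an accessory subunit near the NADH-binding site of complex I, with 74.0, 70.2 and 68.4 FPKM at 1/2 LD50 and 47.6, 60.4 and 49.2 FPKM in saline. All 3 of these soman libraries were above the saline ones, and the change did not pass (adjusted p = 0.157, limma).

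On day 3 nearly all subunits were above saline, and 9 of them passed in at least 1 dose group. The fitted change was positive for 50, 51 and 50 of 52 genes at 1/10, 1/5 and 1/2 LD50, with medians of 0.20, 0.26 and 0.23, where the median over all genes was 0.00, 0.01 and 0.04. In 36, 41 and 38 subunits all 3 soman libraries exceeded all 3 saline libraries, against 13%, 16.3% and 20.3% of all tested genes. Medians by complex were 0.20 to 0.23 for complex I, 0.19 to 0.27 for complex III and 0.18 to 0.27 for complex IV. Of the subunits 1 rose at 1/10 LD50 (1.61% of all genes rose and 5.36% fell), 5 rose at 1/5 LD50 (2.48% and 6.12%) and 5 rose at 1/2 LD50 (3.79% and 4.65%). None of the 52 fell, while at an unadjusted p under 0.05 there were 16, 27 and 24 subunits. Of all 14701 genes there were 3311, 3666 and 3655, a smaller share than of the subunits at each dose.

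Ndufa6, an accessory subunit that sits where the matrix arm of complex I meets the membrane, rose at 1/10 LD50. It had 104, 112 and 102 FPKM there, against 83.8, 89.6 and 85.2 FPKM in saline, a change of 0.30 ± 0.08 (adjusted p = 0.0244, limma). At 1/2 LD50 it had 108, 102 and 107 FPKM (0.29 ± 0.08, adjusted p = 0.0263, limma). At 1/5 LD50 it had 101, 105 and 99.3 FPKM, at an adjusted p of 0.0688 by limma. In each dose group every soman library lay above every saline library. At the middle dose, Ndufv3 had 73.5, 73.7 and 73.3 FPKM, against 47.6, 60.4 and 49.2 FPKM in saline, the largest change of the 5 that rose there (0.49 ± 0.12, adjusted p = 0.00825, limma). Ndufa11 followed with 23.8, 26.0 and 23.8 FPKM, against 19.8, 20.3 and 19.3 FPKM in saline (0.29 ± 0.08, adjusted p = 0.0226, limma). In neither gene did the groups overlap. The others that rose at 1/5 LD50 were Ndufb8 (0.28), Uqcrc2, a core protein of complex III (0.26), and Uqcrb, the subunit of complex III that helps bind ubiquinone (0.28). At 1/2 LD50 Uqcrb had 110.2, 113 and 103 FPKM, against 94.3, 79.7 and 87.4 FPKM in saline (0.32 ± 0.09, adjusted p = 0.0287, limma). Cox5b, a zinc-binding subunit of complex IV, had 282, 250.4 and 269.6 FPKM there, against 204, 213 and 187 FPKM (0.41 ± 0.11, adjusted p = 0.0196, limma). Both genes were higher in all 3 soman libraries than in any saline library. Ndufb4 and Ndufs4 completed the 5, with changes of 0.37 and 0.27.

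The day 3 counts depended on which libraries were in the model. Without the 2 libraries of highest mitochondrial share, which belong to day 7, 16, 30 and 25 subunits rose at 1/10, 1/5 and 1/2 LD50 (3.9%, 5.43% and 7.47% of all genes), and the pooled residual SD of the subunits was 0.0938, against 0.150 with all libraries. Without the 7 libraries lying between others of their group, saline library 3 among them, none passed at any of the 3 doses. Those 7 were chosen for lying between the other 2, so leaving them out can widen the spread by the choice alone. The pooled residual SD of the subunits was then 0.170, over 32 libraries. The 2 libraries of highest mitochondrial share also had the lowest subunit shares, so leaving those out can likewise narrow the spread of the subunits. Over all genes the pooled residual SD was 0.117 without those 2, against 0.129 with all libraries. Leaving out single libraries gave 0 or 1 at 1/10 LD50, 1 to 7 at 1/5 LD50 and 0 to 3 at 1/2 LD50. At 1/10 LD50 none passed without saline library 1 or 3 or library 2 of the group. At 1/5 LD50, 1 or 2 passed without any single saline library or library 1 or 2 of the group. At 1/2 LD50 every one of the 6 libraries left out lowered the count, to 0 without saline library 3 or library 1 of the group. Markers of meninges, Col1a1, Col3a1, Igf2 and Slc13a4, fell in all 3 day 3 groups (4 of 4), to a summed 21.4 to 31.2 FPKM, against 36.6 to 41.7 FPKM in saline, and their part in the result was not tested.

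**Figure D2:**
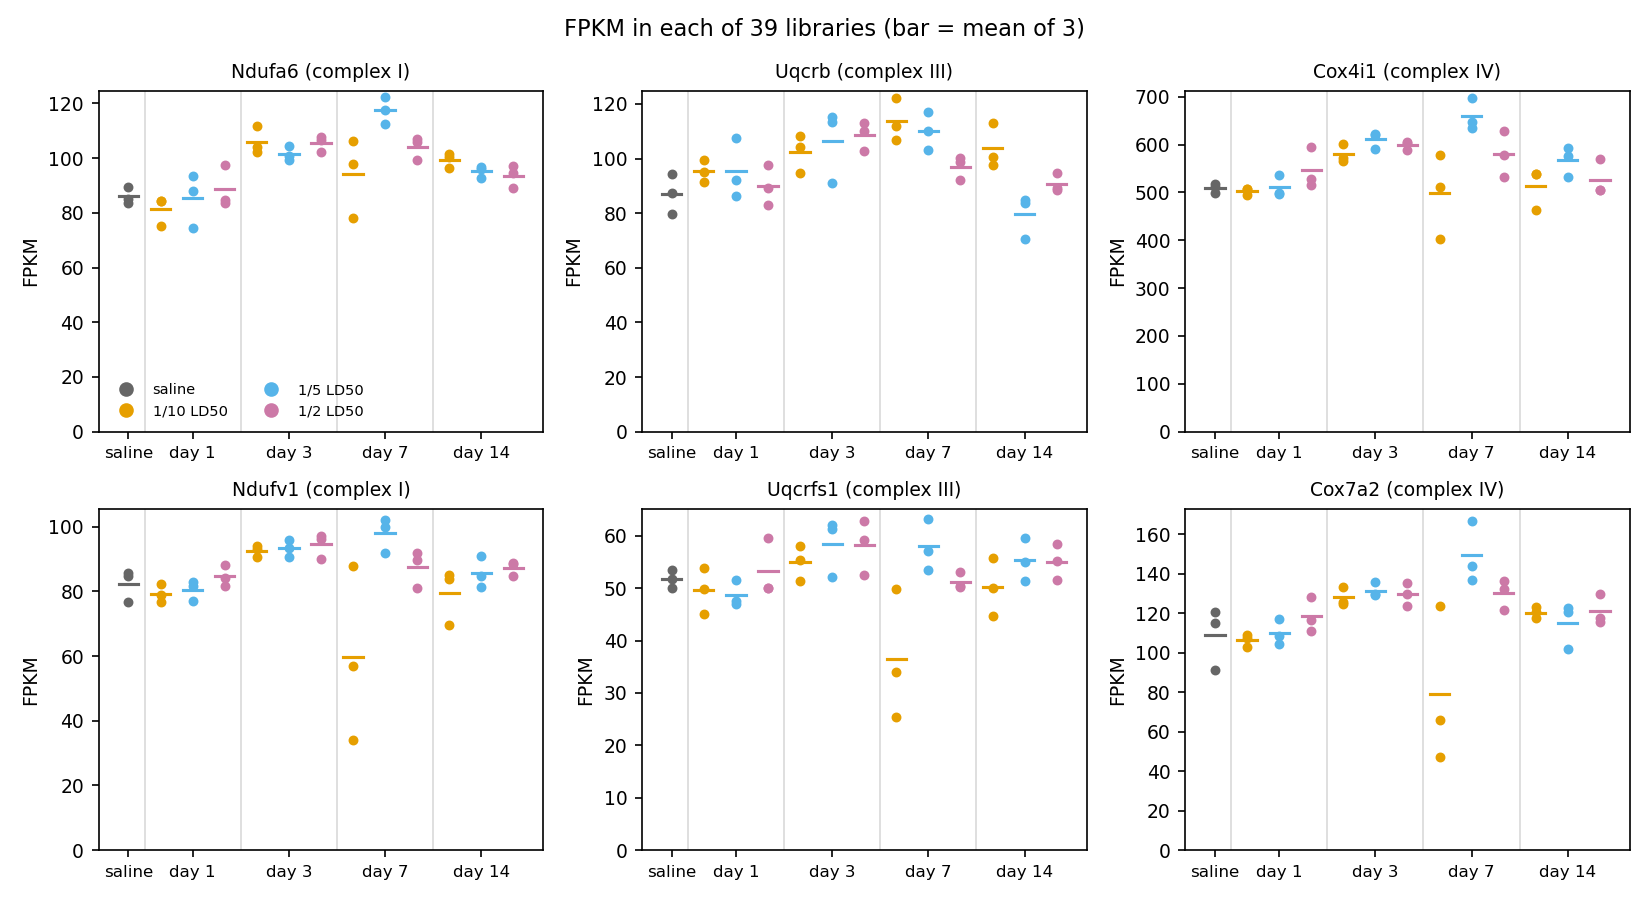
FPKM (y axis) of 6 subunit genes in each of 39 libraries by day (x axis), coloured by dose, with bars for the mean of 3. At 1/10 LD50 on day 7, Ndufv1, Uqcrfs1 and Cox7a2 run down to 34.1, 25.5 and 47.1 FPKM in the lowest library, while Uqcrb reaches 122 FPKM in that library.

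On day 7 the 1/5 LD50 group had the most risen subunits of the 12 groups. There 24 of 52 rose and none fell, where 6.49% of all genes rose and 8.87% fell, and the change was positive for 51. In 45 subunits the soman and saline libraries did not overlap, with soman higher, against 21.7% of all genes. The 24 were 14 of complex I, 4 of complex III and 6 of complex IV, and the median change was 0.34, 0.36 and 0.39 in the 3 complexes, against 0.03 over all genes. In complex I those that rose were accessory subunits, Ndufa1, Ndufa3, Ndufa5, Ndufa6, Ndufa8, Ndufa11, Ndufb4, Ndufb7, Ndufb8, Ndufb10, Ndufs4, Ndufs5, Ndufs6 and Ndufv3. Complex III contributed Uqcrb, Uqcrq, Uqcr10 and Uqcr11, and complex IV Cox4i1, Cox5b, Cox6a1, Cox6c, Cox7b and Cox7c.

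Ndufa6 was the subunit of smallest p. It had 113, 118 and 122 FPKM at 1/5 LD50, against 83.8, 89.6 and 85.2 FPKM in saline, a change of 0.44 ± 0.08 (adjusted p = 0.000442, limma), and every soman library was above every saline library. Ndufb7, which carries disulfide bonds on the intermembrane side of complex I, had 97.3, 94.8 and 110.1 FPKM, against 68.2, 77.5 and 72.9 FPKM in saline (0.46 ± 0.10, adjusted p = 0.00248, limma). Ndufa11 had 24.4, 25.8 and 26.9 FPKM, against 19.8, 20.3 and 19.3 FPKM (0.36 ± 0.08, adjusted p = 0.00308, limma). Both were without overlap. The largest change of the 52 was that of Ndufa3, a small membrane-arm subunit, with 94.5, 82.8 and 89.1 FPKM, against 60.9, 61.2 and 59.6 FPKM in saline (0.54 ± 0.15, adjusted p = 0.0122, limma). In complex III, Uqcrq had 45.2, 41.4 and 45.3 FPKM, against 30.8, 34.1 and 31.9 FPKM (0.43 ± 0.13, adjusted p = 0.0197, limma). Neither overlapped with saline. Other small subunits of complex III rose: Uqcr11 changed by 0.52 and Uqcr10 by 0.44. In complex IV, Cox4i1 had 634, 647 and 698 FPKM, against 499, 517 and 511 FPKM in saline (0.37 ± 0.09, adjusted p = 0.00507, limma). Cox5b had 285, 248 and 292 FPKM, against 204, 213 and 187 FPKM (0.45 ± 0.11, adjusted p = 0.00564, limma). Both complex IV genes were again fully apart from saline.

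Among the 28 that did not pass, the only negative change was that of Ndufs1, the largest iron-sulfur subunit of complex I, with 56.5, 58.4 and 61.4 FPKM at 1/5 LD50 and 61.4, 61.9 and 63.7 FPKM in saline (-0.09 ± 0.07). Ndufa9 and Ndufa10 were also near saline, at 0.06 and 0.07. At the other end, Ndufa2 changed by 0.52 ± 0.18 and missed the threshold (adjusted p = 0.0536, limma). Without the 2 libraries of highest mitochondrial share 42 subunits rose (10.6% of all genes), the first 24 among them, and without the 7 libraries lying between others 4 rose (5.14% of all genes passed in either direction). Leaving out saline library 3, or library 3 of the group itself, gave 11 each (8.48% and 7.69% of all genes in either direction). The mitochondrial share was 10.4% to 11.7% in this group, against 7.17% to 11.9% in saline. Meningeal markers fell here too (4 of 4), to a summed 15.7 to 19.8 FPKM, against 36.6 to 41.7 FPKM in saline, and 2 of 3 choroid plexus markers fell (203 to 496 FPKM, against 382 to 527 FPKM). Their part in the result was not tested.

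**Figure D3:**
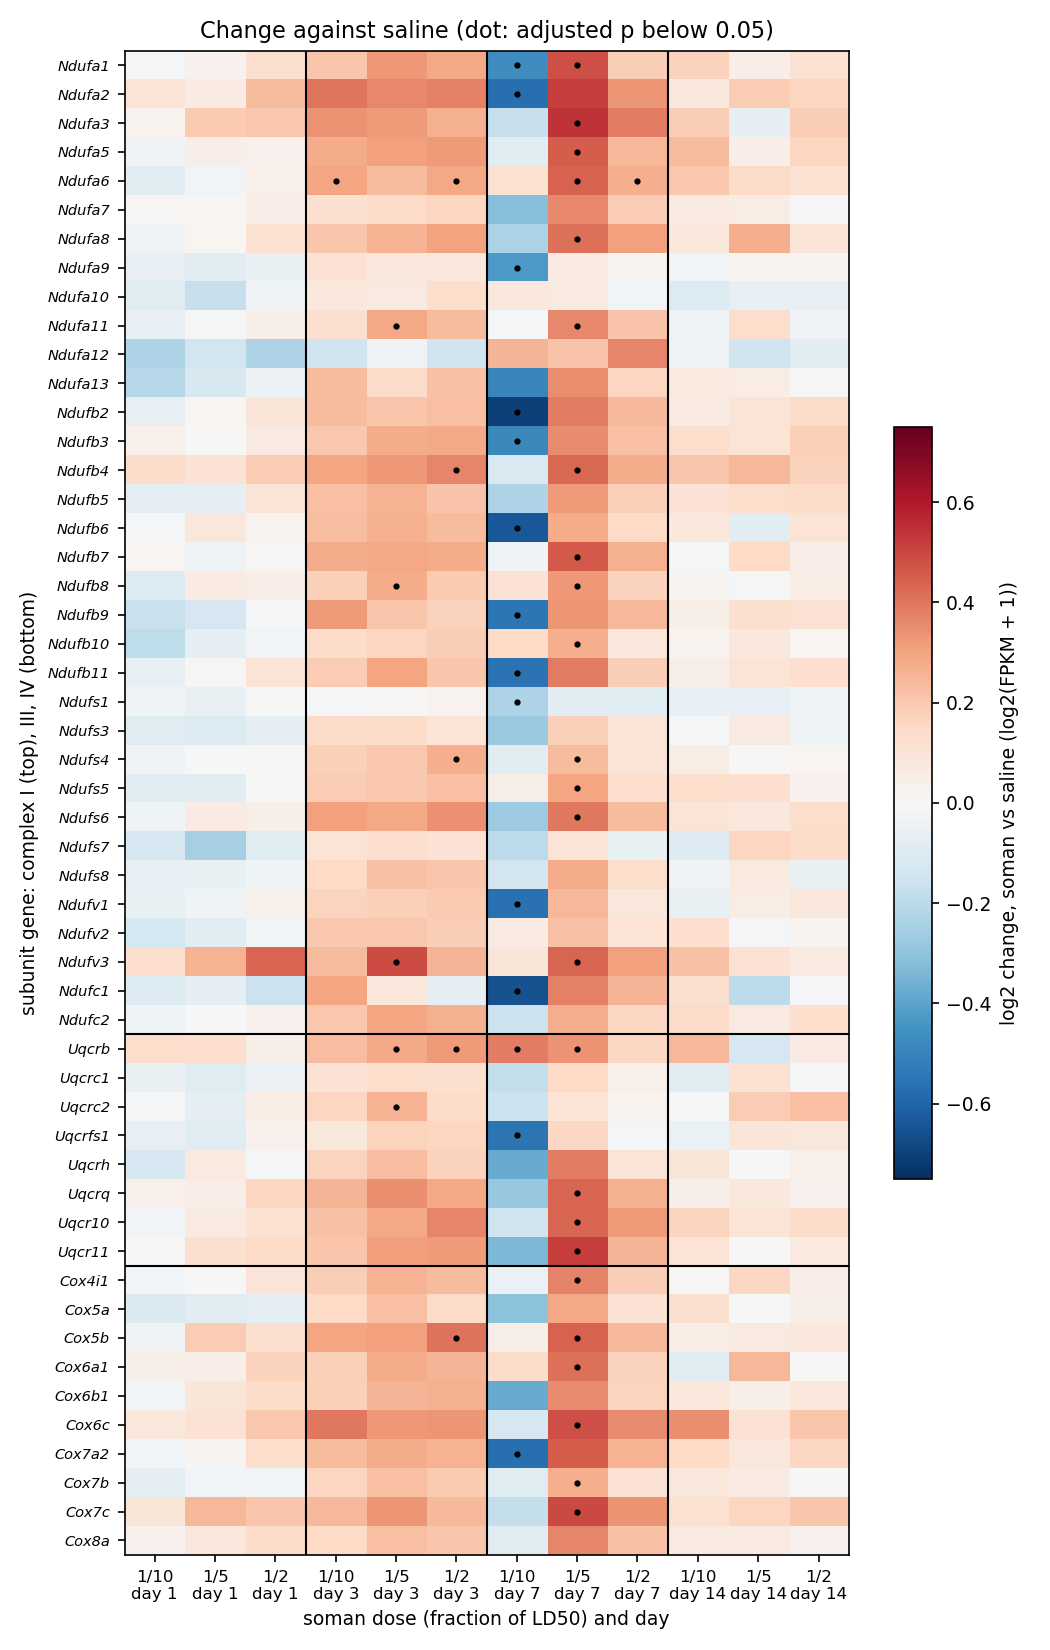
Change of each of the 52 subunits (rows, by complex) against saline in the 12 soman groups (columns, by day and dose), as difference of mean log2(FPKM + 1), red higher and blue lower in soman. Dots mark an adjusted p under 0.05: none on days 1 and 14, 1, 5 and 5 on day 3, and 14, 24 and 1 on day 7.

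At 1/10 LD50 on day 7 the subunits split by library, and the group mean describes none of the 3. Library 1 had 47 of 52 subunits above the saline mean and a median difference of 0.18. That was within the range of the 1/2 LD50 libraries of day 7 (44 to 50 above, medians of 0.15 to 0.26). It was below the 1/5 LD50 libraries (49 to 51 above, medians of 0.30 to 0.45). Library 2 had 15 above and a median of -0.19, and library 3 had 6 above and a median of -0.61. In 46 of the 52 the order was library 1, then 2, then 3, from high to low. Library 3 was below all saline libraries in 45 subunits, library 2 in 34 and library 1 in 2. These counts were not made over all genes. Library 2 lay between the other 2 at 65.0% of all genes that differ at least 2-fold between them, so its middle place was not particular to the subunits. The median SD of the subunits within this group was 0.415, against 0.0674 to 0.0926 in the other 12 groups. Over all tested genes it was 0.174, against 0.0798 to 0.116 in the other groups, so the wider spread was not confined to the subunits. The 52 subunits together held 1.99%, 1.52% and 1.20% of all FPKM in libraries 1, 2 and 3, against 1.82% to 1.92% in saline. Of the FPKM outside the mitochondrial genome they held 2.26%, 1.98% and 1.66%, against 2.00% to 2.07% in saline, so library 3 stayed below saline on that scale too. All 13 subunits encoded by mitochondrial DNA rose against saline by the group mean, with a median change of 1.39. Their summed FPKM in the group ran between 34351 and 82559, against 18135 to 32859 in saline. They were thus above saline in library 1 too, where most of the 52 were also higher, and went the other way from most of the 52 in libraries 2 and 3.

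**Figure D4:**
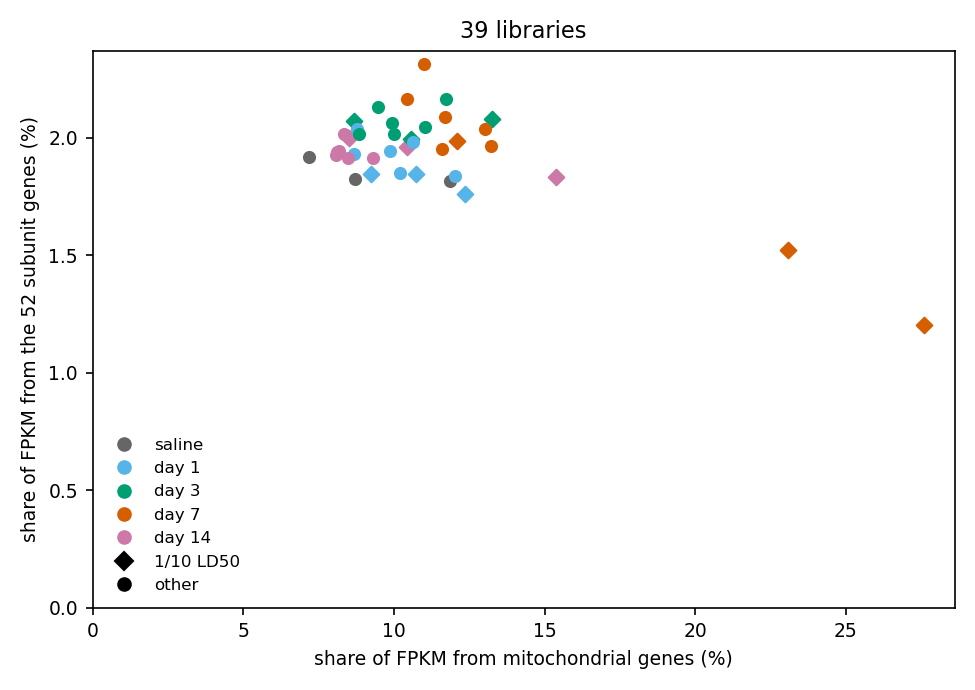
Share of all FPKM held by the 52 subunits (y axis, %) against the share held by genes of the mitochondrial genome (x axis, %) in the 39 libraries, coloured by day, diamonds for 1/10 LD50. The 2 libraries at 23.1% and 27.6% on the x axis have the lowest subunit shares, 1.52% and 1.20%, and all others lie between 1.76% and 2.31%.

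By the test of the group mean, 13 subunits fell and 1 rose at this dose, where 15.3% of all genes fell and 4.23% rose. Those that fell were Ndufa1, Ndufa2, Ndufa9, Ndufb2, Ndufb3, Ndufb6, Ndufb9, Ndufb11, Ndufs1, Ndufv1 and Ndufc1 of complex I, Uqcrfs1 of complex III and Cox7a2 of complex IV. Uqcrfs1, the Rieske iron-sulfur protein that takes electrons from ubiquinol, had 49.9, 33.9 and 25.5 FPKM, against 50.0, 51.8 and 53.6 FPKM in saline, a change of -0.55 ± 0.13 (adjusted p = 0.00569, limma). Ndufa9, a subunit beside the quinone site, had 75.6, 57.4 and 41.3 FPKM, against 79.5, 74.4 and 75.3 FPKM (-0.43 ± 0.10, adjusted p = 0.00602, limma). Ndufv1, which binds the flavin that oxidises NADH, had 87.8, 57.1 and 34.1 FPKM, against 76.7, 84.8 and 85.8 FPKM (-0.56 ± 0.16, adjusted p = 0.0133, limma). In each of these 3 genes library 1 lay within or just beside the saline range, and the other two lay below it. Ndufa1, a membrane-arm subunit, had 75.5, 38.6 and 30.6 FPKM, against 63.0, 61.1 and 62.6 FPKM (-0.47 ± 0.16, adjusted p = 0.042, limma). It was the 1 subunit that passed in both directions, since it rose at 1/5 LD50 on the same day (0.49 ± 0.16, adjusted p = 0.0409, limma). Cox7a2 had 124, 65.9 and 47.1 FPKM, against 120.5, 91.3 and 115 FPKM (-0.57 ± 0.17, adjusted p = 0.0199, limma). In Ndufa1 and Cox7a2 library 1 lay above all saline libraries and the other two below them.

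Not every subunit followed this slope. Between library 3 and library 1 of the group the log2 difference ran between -1.80 for Ndufb2 and 0.23 for Ndufb10, with a median of -0.81. It was positive for 5 genes, Ndufb10, Ndufa10, Uqcrb, Ndufv3 and Ndufa12. Uqcrb had 107, 112 and 122 FPKM, against 94.3, 79.7 and 87.4 FPKM in saline, and was the 1 subunit that rose (0.38 ± 0.09, adjusted p = 0.00556, limma). Its 3 libraries all lay above saline, which held for 1 of the 52 at this dose (7.71% of all genes). Ndufb10 had 111, 120.1 and 129.7 FPKM, against 104, 112 and 107 FPKM, and did not pass (adjusted p = 0.169, limma). Ndufa12 values are uncertain, because a pseudogene of it has a row of its own at 36.9 ± 8.88 FPKM in saline, against 27.1 ± 5.53 FPKM for Ndufa12, and how the authors divided shared reads is not given.

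The falls rested on libraries 2 and 3. Without both, the group has 1 library, which limma then assumes to vary like the other groups: no subunit passed, and Ndufa1, Ndufa2, Ndufb2, Ndufb3, Ndufb6, Ndufb9, Ndufb11, Ndufv1 and Cox7a2 turned to positive changes of 0.07 to 0.27. Without library 3 alone none passed, without library 2 alone 8 did (11.8% of all genes), and without library 1 alone 35 did, 34 of them lower (36.1% of all genes in either direction). Leaving out saline library 1, 2 or 3 gave 5, 9 and 4 (13.4%, 13.2% and 10.2% of all genes). In a model of this group and saline only, none passed. Haemoglobin genes and Alas2, markers of blood, summed to 333 to 705 FPKM in the group, against 795 to 926 FPKM in saline, with 2 of 5 fallen, and meningeal markers fell (4 of 4). The part of either in the result was not tested.

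**Figure D5:**
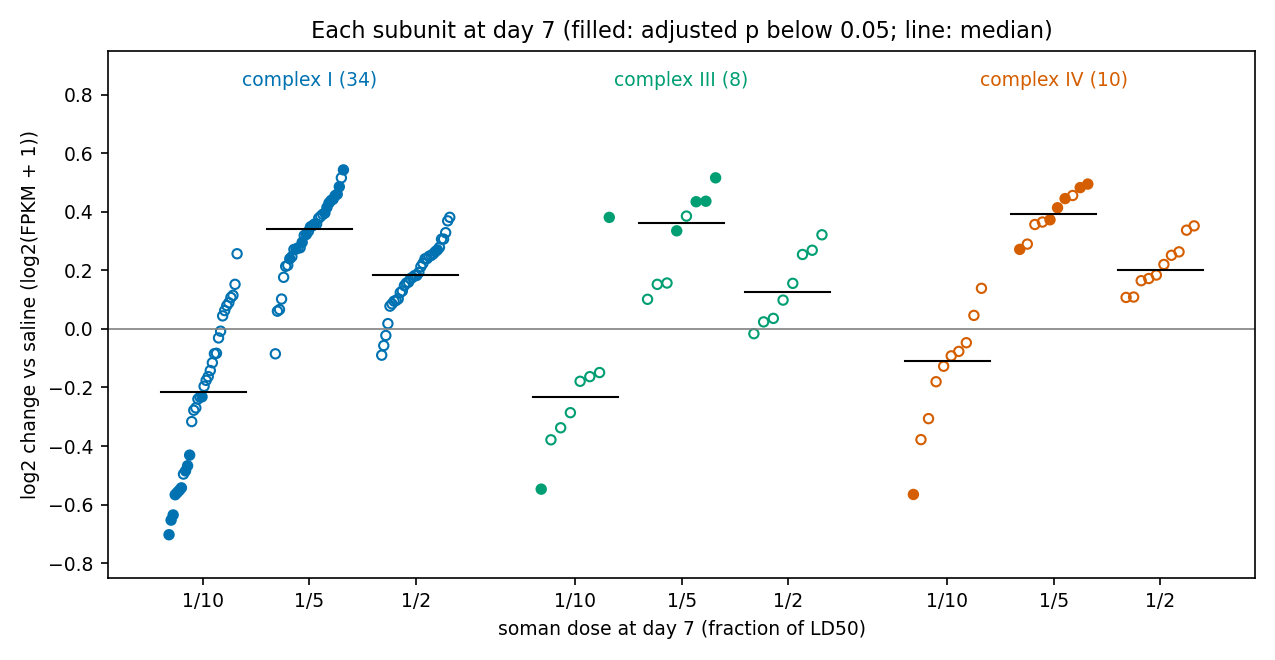
Change against saline on day 7 (y axis, log2(FPKM + 1)) of each subunit, by complex and soman dose (x axis), sorted within a column, with lines at the medians. Filled points passed: 11 fell at 1/10 LD50 in complex I, while at 1/5 LD50 14, 4 and 6 rose in complexes I, III and IV.

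At 1/2 LD50 on day 7 the median of the subunits lay between those of the other two doses. Ndufa6 was the 1 that rose (1.71% of all genes rose and 6.68% fell), with 106, 99.5 and 107 FPKM, against 83.8, 89.6 and 85.2 FPKM in saline (0.27 ± 0.08, adjusted p = 0.0363, limma). The change was positive for 48 of 52, with a median of 0.18, and 31 subunits had all soman libraries above saline, against 13.5% of all genes. With the 2 libraries of highest mitochondrial share left out 13 rose (3.77% of all genes), and without the 7 lying between others none did. Leaving out saline library 1 or 3, or library 1 or 3 of this group, also left none. Meningeal markers fell (4 of 4), to a summed 16.3 to 21.0 FPKM, against 36.6 to 41.7 FPKM in saline, and 2 of 3 choroid plexus markers fell (239 to 451 FPKM, against 382 to 527 FPKM), whose part was not tested.

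Set against each other with no saline library involved, 1/5 and 1/10 LD50 on day 7 differed in 45 of 52 subunits, all higher at 1/5 LD50, where 21.8% of all genes were higher and 5.74% lower. The median difference was 0.54 (0.09 over all genes). This comparison was chosen after the values were seen. The 7 that did not pass were Ndufa10, Ndufa12, Ndufb10, Ndufs1, Ndufs7, Ndufv2 and Uqcrb. Uqcrb was the complex III member among them, with 110.2, 103 and 117 FPKM at 1/5 LD50 and 107, 112 and 122 FPKM at 1/10 LD50 (-0.05 ± 0.09). Without libraries 2 and 3 of the 1/10 LD50 group none passed, and in a model of those 2 groups alone none passed either. Other lists differed between these groups as well: 4 of 5 blood markers were higher at 1/5 LD50 (a summed 805 to 1424 FPKM, against 333 to 705 FPKM at 1/10 LD50), 2 of 4 meningeal markers were lower, and 12 of 13 subunits made from mitochondrial DNA were lower (median -0.98). Their part was not tested.

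On day 14 no subunit passed at any dose by limma, with 4, 4 and 1 at an unadjusted p under 0.05 at 1/10, 1/5 and 1/2 LD50. Below that unadjusted p were 1655, 1522 and 1313 of all 14701 genes, a larger share than of the subunits at each dose. Of all genes 0.0476% rose and 0.388% fell at the lowest dose. The middle dose had 0.0612% higher and 0.102% lower, and the highest 0.0816% higher and 0.333% lower. Median changes of the subunits were 0.08, 0.08 and 0.07, against -0.04, 0.01 and -0.01 over all genes. Ndufa6 had 96.2, 100.3 and 102 FPKM at 1/10 LD50, against 83.8, 89.6 and 85.2 FPKM in saline, still above every saline library. Cox4i1 had 539, 463 and 538 FPKM, against 499, 517 and 511 FPKM, with overlap. Ndufa6 was not alone at that dose: Ndufa1, Uqcrb and Cox5a, among others, were also above every saline library. The share of all genes without overlap was not computed for day 14. In the model that leaves out the 2 libraries of highest mitochondrial share 1 subunit rose at 1/5 LD50 (0.32% of all genes).

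Days were also compared among soman animals, over the 3 doses and without saline. On day 3 all 52 subunits were above day 1, and 29 rose, 19 of complex I, 5 of complex III and 5 of complex IV, where 12.9% of all genes rose and 10.6% fell. The median difference was 0.22 (0.03 over all genes), within 0.19 to 0.22 for each complex. Ndufa6 differed by 0.30 ± 0.05 (adjusted p = 5.78e-05, limma). Its 9 day 3 libraries ran between 99.3 and 112 FPKM, and its 9 day 1 libraries between 74.4 and 97.5 FPKM, with no overlap. Ndufs5, of the intermembrane side of complex I, differed by 0.26 ± 0.04 (adjusted p = 8.68e-05, limma), and Ndufv2, an iron-sulfur subunit next to the flavin, by 0.27 ± 0.05 (adjusted p = 9.12e-05, limma). Ndufv2 had 78.6, 81.2 and 77.0 FPKM at 1/10 LD50 on day 3 and 70.9, 54.3 and 62.8 FPKM at that dose on day 1. The smallest differences were those of Ndufs1 (0.03) and Ndufv3 (0.05). With the 2 libraries of highest mitochondrial share left out 45 rose (18% of all genes), and without the 7 lying between others 17 rose, 16 of them among the 29 (11.9% of all genes passed in either direction). Meningeal markers fell between these days as well (4 of 4), and so did 2 of 3 of the choroid plexus, whose part was not tested.

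On day 7, 14 subunits rose relative to day 1 and none fell, where 10.2% of all genes rose and 14.8% fell. Ndufa6 differed by 0.30 ± 0.05 (adjusted p = 2.59e-05, limma) and Ndufb10, of the membrane arm, by 0.26 ± 0.05 (adjusted p = 9.39e-05, limma). Without libraries 2 and 3 of 1/10 LD50 at day 7 the number was 45 (14.9% of all genes), without library 3 alone 32 (26.7% of all genes in either direction), and without the 7 lying between others 7 (13.1% in either direction). Meningeal markers fell between these days (4 of 4), as did 2 of 3 of the choroid plexus, and 12 of 13 subunits made from mitochondrial DNA rose (median 0.59). Their part was not tested. On day 14, 4 subunits rose relative to day 1, or 7.69% of the 52, where 7.27% of all genes rose and 7.67% fell, a share near the background. The 4 were Ndufa6 (0.18 ± 0.05, adjusted p = 0.0107), Ndufs5 (0.15 ± 0.04, adjusted p = 0.0181), Ndufb10 and Uqcrc2, by limma. Leaving out library 2 of any dose or library 3 of 1/5 or 1/2 LD50 at day 1, library 3 of 1/10 or 1/2 LD50 or library 1 or 2 of 1/5 LD50 at day 14 left 2, leaving out the 7 left none, and leaving out the 2 of highest mitochondrial share gave 13 (9.97% of all genes). All 5 blood markers, 4 of 4 meningeal and 2 of 3 microglial markers fell between days 14 and 1, and their part was not tested. A difference among the 4 days, by limma's F-test, passed in 30 of 52 subunits, a share of 57.7% against 49.5% of all genes, so that it set the subunits little apart from other genes. Ndufa6 (adjusted p = 1.64e-05), Ndufb10 (6.34e-05) and Ndufs5 (0.000102) had the smallest values by limma. It passed in 49 without the 2 libraries of highest mitochondrial share (51.4% of all genes) and in 15 without the 7 (30% of all genes).

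Comparisons over all doses called few subunits. None passed when all soman libraries were set against saline (0.415% of all genes rose and 2.16% fell), with a median change of 0.10. At an unadjusted p under 0.05 there were 9 of 52 subunits and 2453 of all 14701 genes, a share near the background. Without the 2 libraries of highest mitochondrial share 10 rose (1.48% of all genes), and without library 3 of 1/10 LD50 at day 7 alone 3 did (3.8% of all genes passed in either direction). Between 1/2 and 1/10 LD50 over the 4 days no subunit passed (0.034% of all genes were higher and 0.0068% lower). Yet the difference was positive for 51 of 52, with a median of 0.11. At an unadjusted p under 0.05 there were 27 subunits, a larger share than the 2918 of all 14701 genes. Without library 1 of 1/10 LD50 at day 7, which leaves the 2 of highest mitochondrial share, 33 passed (17.4% of all genes). A dose effect that differs between days passed in 1 subunit, or 1.92% of the 52, against 1.59% of all genes, a share near the background. The 1 was Ndufc1, a small membrane-arm subunit (adjusted p = 0.0351, limma F-test). On day 3 Ndufc1 had 88.7, 92.1 and 80.4 FPKM at 1/10 LD50, 80.1, 65.4 and 80.7 FPKM at 1/5 LD50 and 79.0, 73.6 and 52.9 FPKM at 1/2 LD50. On day 7 it had 69.2, 42.6 and 30.0 FPKM at 1/10 LD50, 91.0, 89.0 and 96.8 FPKM at 1/5 LD50 and 86.7, 83.5 and 83.9 FPKM at 1/2 LD50. The mean of the 1/10 LD50 group was the highest of the 3 on day 3 and the lowest on day 7. Without the 2 libraries of highest mitochondrial share this test passed in no subunit, and without library 1 of 1/10 LD50 at day 7 it passed in 37 (19.6% of all genes). It also passed in none without library 2 or 3 of 1/10 LD50 at day 1 or 7, any library of 1/5 LD50 or library 1 or 2 of 1/2 LD50 at day 7, or library 2 or 3 of 1/5 LD50 at day 14, each left out alone.

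Catalytic core subunits of complex I differed in their changes. Ndufv1, Ndufv2 and Ndufs1 form the tip that takes electrons from NADH, Ndufs7 and Ndufs8 carry iron-sulfur clusters on the path to ubiquinone, and Ndufs3 is a core subunit of the same arm with no redox centre of its own. None of the 6 passed against saline on day 3, or at 1/5 or 1/2 LD50 on day 7. At 1/5 LD50 on day 7 their changes were 0.25 for Ndufv1, 0.22 for Ndufv2, -0.09 for Ndufs1, 0.18 for Ndufs3, 0.10 for Ndufs7 and 0.28 for Ndufs8, below the complex I median of 0.34 in each case. Ndufs8 had 66.3, 77.3 and 79.4 FPKM, against 64.2, 62.2 and 56.9 FPKM in saline, without overlap (adjusted p = 0.0776, limma). Ndufs7 had 73.6, 76.8 and 84.7 FPKM, against 78.6, 78.9 and 62.2 FPKM, with overlap. Between days 3 and 1 Ndufv2, Ndufs3 and Ndufs8 rose (0.27, 0.22 and 0.24), and Ndufv1 (0.20), Ndufs1 (0.03) and Ndufs7 (0.27) did not pass. No test set these subunits against the accessory ones.

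The core proteins of complex III did not pass at 1/5 LD50 on day 7. Uqcrc1 had 152, 163 and 168 FPKM at 1/5 LD50 on day 7, against 143, 147 and 144 FPKM in saline (0.15 ± 0.08), and Uqcrc2 had 111, 109 and 117 FPKM, against 104, 105 and 106 FPKM (0.10 ± 0.08). All soman libraries of both were above saline, by small margins. Uqcrfs1 had 53.5, 57.1 and 63.2 FPKM, with overlap. Uqcrh, with 212, 205 and 234 FPKM, against 167, 161 and 169 FPKM in saline, changed by 0.39 ± 0.14 and missed the threshold (adjusted p = 0.0542, limma). In complex IV, Cox5a, which binds a thyroid hormone metabolite, had 212, 212 and 241 FPKM at 1/5 LD50 on day 7, against 181, 180.5 and 181 FPKM (0.29 ± 0.12, adjusted p = 0.0969, limma). Between days 3 and 1 Uqcrc1, Uqcrc2, Cox4i1, Cox5a and Cox5b all rose, by 0.19, 0.19, 0.20, 0.26 and 0.24.

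Length here is the median over all annotated transcripts of a gene, of any type, which can differ from the transcript sequenced. By it the subunits were short, with a median of 579 bases (690.5, 548.5 and 526.5 bases in complexes I, III and IV). The tested genes with a known length had a median of 1388 bases. Where the length of a gene is off, the trend removed for it is off too. When each library's trend on transcript length was removed, 16 subunits rose at 1/5 LD50 on day 7, all among the 24, and Ndufs1 fell by 0.17 on the log2 scale (limma adjusted p = 0.0456; 13.4% of all genes passed in either direction). Between days 3 and 1, 23 rose, all among the 29 (20% of all genes in either direction). On day 3 against saline 1, 3 and 1 rose at the 3 doses (6.54%, 8.13% and 7.94% of all genes in either direction). Of these, 0, 2 and 1 were among the subunits that rose with the trend kept. At 1/10 LD50 on day 3 and at 1/2 LD50 on day 7 Ndufa6 no longer passed. The 1 that passed was Ndufb7, the longest of the subunits by its median over annotated transcripts, at 2529 bases. A transcript of another gene at least 95% identical over at least 200 bases was found for 13 subunits, and apart from the pseudogene of Ndufa12 no such copy had a row above 10% of its subunit's FPKM. Split by promoter motif, of the 12 subunits with NRF1 letters 11 rose between days 3 and 1, and of the 32 without them 13 did, while the median changes were 0.24 and 0.21. This split was looked at after the values were known and was not tested. For GABPA the counts were 4 of 9 with the letters and 20 of 35 without, and for YY1 3 of 7 and 21 of 37.

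Other genes of oxidative phosphorylation were counted beside the subunits. At 1/5 LD50 on day 7, where 6.49% of all genes rose and 8.87% fell, 6 of 18 nuclear subunits of ATP synthase rose, among them Atp5j (0.33 ± 0.07, adjusted p = 0.00267, limma) and Atp5mpl (0.48 ± 0.11, adjusted p = 0.0052, limma). Of the 12 tested nuclear subunits of complexes I, III and IV outside the 52, 4 rose, among them Ndufa4 (0.31) and Cox7a2l (0.41). Of 37 assembly factors 6 rose, among them Cox17, a copper chaperone (0.53), and Surf1 (0.37). None of the 4 subunits of complex II, 1 of 17 enzymes of the citrate cycle and its entry (Suclg1, 0.25) and none of the 13 subunits made from mitochondrial DNA rose there, and none of these lists had a fallen gene. Of 16 regulators of mitochondrial biogenesis 1 rose and 2 fell, Ppargc1a, the coactivator known for driving mitochondrial genes (-0.56 ± 0.08, adjusted p = 4.02e-05, limma), and Esrrg (-0.69 ± 0.15, adjusted p = 0.00268, limma). Between days 3 and 1, where 12.9% of all genes rose and 10.6% fell, 12 of 18 ATP synthase, 11 of 37 assembly, 5 of 17 citrate cycle and 1 of 4 complex II genes rose, and none fell. Of the 16 regulators 3 fell and none rose. At 1/10 LD50 on day 7, where 15.3% of all genes fell, 4 of 18 ATP synthase, 10 of 37 assembly, 2 of 4 complex II and 5 of 17 citrate cycle genes fell. For ATP synthase, with 4 of 18, the share was near that background.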

How the data were processed

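RNA-seq of mouse brain was analysed as the FPKM table that the authors deposited, 1 column per library. The submitters' processing notes name HISAT2 and the build GRCh38, which is a human build, so the build of the mouse alignment is unsure and no coordinates were taken from the table. How reads with several matches were counted is not given in the sources used here. Labels gave each library its group, and no column was left unmapped.

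FPKM were changed to log2(FPKM + 1), and genes with at least 1 FPKM in at least 3 libraries were kept. The log2 values, computed from the deposited FPKM, were fitted with limma 3.58.1 in R 4.3.3 (eBayes with a mean trend) over 13 groups, with 26 residual degrees of freedom and Benjamini-Hochberg adjustment over 14701 genes at 0.05. This scale understates changes of low genes. The fit was tested on simulated data with known changes. Replicate numbers did not pair libraries: among 234 pairs with the same number the median correlation of deviations was 0.00535, and 39 exceeded 0.1.

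Each result was recomputed with a pseudocount of 0.1, with all genes kept, after median-ratio scaling, with only the groups compared, with a replicate block, after removal of a lowess trend (span 0.5) on transcript length, after rescaling to genes outside the mitochondrial genome, and with libraries left out. The rescaling, the omission of both kinds of library together, and the comparison of 1/5 with 1/10 LD50 at day 7 were added after values were seen.

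A rule set which subunits to name: of those that passed, the 3 of smallest p in each direction and comparison, and the leading 6 of either F-test. It also took the highest and lowest in each complex, the redox and core subunits, and any that passed in opposite directions. Other subunits are named outside this rule, such as Ndufb4, Ndufs4, Ndufa10, Ndufa12, Ndufb2, Uqcr10 and Uqcr11. They complete a list, give the end of a range or show a promoter, and were picked with the values known. The members, lists and tests were chosen with earlier results of these data known. Near-identical transcripts were searched with BLAST 2.17.0 among GENCODE mouse transcripts, which also gave transcript lengths, and promoter windows came from RefSeq GRCm38.p6. Python 3.11.15, pandas 2.3.3 and matplotlib 3.10.9 were used.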

Additional observations from a re-analysis of the deposited data

Results flagged for a closer look

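For Ndufc1 the effect of dose differed between days (adjusted p = 0.0351, limma F-test of the dose by day terms). Ndufc1 was the 1 of 52 subunits that passed (1.92%, against 1.59% of all genes), a share near the background. Its change against saline was -0.65 at 1/10 LD50, 0.38 at 1/5 LD50 and 0.26 at 1/2 LD50 on day 7, and 0.29, 0.08 and -0.07 at those doses on day 3. The low day 7 value rests on libraries 2 and 3 of the 1/10 LD50 group, without which the test passed in no subunit.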

How the results depend on the processing

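Counts below are subunits of 52 that passed, higher and lower together. Percentages in brackets are the share of all tested genes that passed under that setting, in either direction. No call changed direction under a pseudocount of 0.1, scaling, filter, block, length or single-library alternatives, while many were lost. With median-ratio scaling, 4 passed at 1/10 LD50 (8.39%) and 14 at 1/5 LD50 (10.6%) on day 3. On day 7, 4 passed at 1/2 LD50 (9.33%), and the dose by day test gave 3 (2.2%). With no filter, 2 passed at 1/5 LD50 (2.49%) and 1 at 1/2 LD50 (2.32%) on day 3. On day 7, 4 passed at 1/10 LD50 (5.52%) and 0 at 1/2 LD50 (2.33%). Day 14 against day 1 gave 2 (5.33%) and the dose by day test 0 (0.156%). With only the groups compared, 2 passed at 1/10 LD50 (1.46%) and 15 at 1/2 LD50 (6.67%) on day 3. On day 7, 0, 38 and 3 passed at 1/10, 1/5 and 1/2 LD50 (0.034%, 19.3% and 3.78%). That setting gave 44 for day 3 (25.5%) and 11 for day 14 (19.9%) against day 1. It gave 0 for 1/5 against 1/10 LD50 at day 7 (0%) and 0 in the dose by day test (0.605%). With the replicate block, 3 passed at 1/5 LD50 on day 3 (8.14%), and other counts stayed within 1.5 times. Of the 39 libraries, 14 correlated best with their own number. Rescaled to nuclear genes, 3 passed at 1/2 LD50 on day 3 (10.9%) and 3 in the dose by day test (2.33%). With the length trend removed, 3 passed at 1/5 LD50 (8.13%) and 1 at 1/2 LD50 (7.94%) on day 3, and 3 in the dose by day test (2.17%). At 1/10 LD50 on day 3 and 1/2 LD50 on day 7 the count stayed at 1, with Ndufb7 in place of Ndufa6.

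When the 2 libraries of highest mitochondrial share were left out, 16, 30 and 25 passed at 1/10, 1/5 and 1/2 LD50 on day 3, 0, 42 and 13 on day 7, 1 at 1/5 LD50 on day 14 and 10 for all soman. Days 3, 7 and 14 against day 1 gave 45, 45 and 13, the day test 49, and 1/5 against 1/10 LD50 at day 7 and the dose by day test 0 each. Without the 7 libraries lying between others, 0 passed at each dose on day 3 (0.98%, 1.38% and 0.952%), and 0, 4 and 0 on day 7 (0.469%, 5.14% and 1.33%). Days 3, 7 and 14 against day 1 gave 17, 7 and 0 (11.9%, 13.1% and 4.66%). The day test gave 15 (30%) and the dose by day test 0 (0.0068%). Without both kinds, 3 passed at 1/10 LD50 on day 3 (2.56%), and 30 at 1/5 LD50 (10.2%) and 2 at 1/2 LD50 (2.85%) on day 7. Days 3 and 14 against day 1 gave 44 (19.5%) and 1 (7.75%). Comparisons that use the 1/10 LD50 group of day 7, which then holds 1 library, are not counted here. The cause was not tested.

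Changes at 1/10 LD50 on day 7 turned positive without the 2 libraries of highest mitochondrial share: Ndufa1 0.27, Ndufa2 0.22, Ndufb2 0.21, Ndufb3 0.13, Ndufb6 0.23, Ndufb9 0.072, Ndufb11 0.13, Ndufv1 0.091 and Cox7a2 0.19. Without both kinds they were 0.28, 0.18, 0.22, 0.15, 0.28, 0.034, 0.15, 0.12 and 0.24 in that order of genes, and Ndufc1 was 0.011.

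Leaving out 1 library at a time gave 0 to 1, 1 to 7 and 0 to 3 at 1/10, 1/5 and 1/2 LD50 on day 3. With all libraries kept, 6.97%, 8.6% and 8.44% of all genes passed there. On day 7 it gave 0 to 35 (4.54% at 0 and 36.1% at 35), 11 to 22 and 0 to 1. For the last 2 doses 15.4% and 8.39% of all genes passed with all libraries kept. For all soman it gave 0 to 3 (3.8% at 3), and for 1/2 against 1/10 LD50 0 to 33 (17.4% at 33). For 1/5 against 1/10 LD50 at day 7 it gave 31 to 47, where 27.6% of all genes passed with all libraries kept. Days 3, 7 and 14 against day 1 gave 24 to 30, 10 to 32 (26.7% at 32) and 2 to 4. The day test gave 24 to 45 and the dose by day test 0 to 37 (19.6% at 37). With all libraries kept, 23.5% of all genes passed for day 3, 14.9% for day 14 and 49.5% in the day test. Where a group is left with 1 library, limma assumes that it varies like the other groups. Read depth is unknown, so no counting interval can be given.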
